A study of Homo sapiens with 6 samples.

Results

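The mRNAs of 8 chains of the laminins, proteins of the basement membrane, were followed upon KMT9α knock-down in A549 cells, a human lung adenocarcinoma line. The genes were chosen by symbol, with α chains LAMA1, LAMA3, LAMA4 and LAMA5, β chains LAMB1, LAMB2 and LAMB3, and the γ chain LAMC1. They are 8 of 23180 gene symbols with counts in the table. Where a gene had several transcripts in the table, it was read from the transcript that collected the most counts in all 6 samples together.

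Laminins are the cross-shaped glycoproteins from which a cell's basement membrane is assembled. Each is a trimer of 1 α, 1 β and 1 γ chain, wound together inside the endoplasmic reticulum, where β and γ chains pair first and the α chain releases the complete trimer for secretion. The trimer is named by its chains, as in laminin α5β1γ1, and cells bind the end of the α chain with integrins and dystroglycan. In lung, laminins with the α3 or α5 chain lie beneath the airway and alveolar epithelium.

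The study silenced KMT9α, the catalytic subunit of a histone methyltransferase that is encoded by N6AMT1, and sequenced total RNA 3 days after siRNA transfection. The 3 siControl samples received a control siRNA and the 3 siKMT9α samples an siRNA against KMT9α, which the study names siKMT9α#1. All 6 samples are labelled as wild type A549 cells at passage 11 and as biological replicates of their group, and p-values measure only the spread between these samples. N6AMT1 measured 10.2, 10.8 and 11.5 CPM (counts scaled to the size of each library) with siControl and 2.87, 3.22 and 3.35 CPM with siKMT9α, a log2 fold change of -1.77 (SE 0.12, adjusted p = 1.42e-10, edgeR quasi-likelihood test). Since a single siRNA against KMT9α was sequenced, an effect of its sequence on other mRNAs cannot be told apart from the loss of KMT9α.

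Total counts, with 1 transcript per gene, ran from 15551782.5 to 18568637 with siControl and from 13740100.5 to 19832398.5 with siKMT9α. The epithelial markers of the labelled cell type summed to 4585 to 5044 CPM with siControl and 3630 to 3769 CPM with siKMT9α. All 8 of them could be tested, of which 4 fell and 2 rose by adjusted p in the edgeR test. EPCAM, among those that fell, was at 0.756, 0.475 and 0.549 CPM with siKMT9α and needed the siControl samples to pass the filter on low counts. The 6 endothelial markers reached at most 1.22 CPM in sum, with PECAM1, VWF, TEK and CLDN5 at 3 counts or fewer in every sample. The 8 fibroblast markers summed to 7.69 to 9.72 CPM with siControl and 3.84 to 5.02 CPM with siKMT9α, with COL1A2 at 0 in all 6 samples and DCN and FAP at 3 counts or fewer. LUM fell from 3.80, 2.59 and 3.02 CPM to 0.378, 0.146 and 0.288 CPM. It passed the filter on low counts only through the siControl samples, where it was higher. COL1A1 fell from 4.35, 3.92 and 4.52 CPM to 2.76, 2.78 and 2.88 CPM, while PDGFRA did not pass the test. Of 5 blood cell markers, CD3E and HBB were at 0 in all 6 samples and PTPRC at 3 counts or fewer, while CD14 and CD68 fell. Their sum ran from 81.5 to 88.3 CPM with siControl and from 29.0 to 30.3 CPM with siKMT9α. Nearly all of it was CD68, at 84.5, 77.7 and 79.5 CPM with siControl and 28.6, 27.1 and 28.0 CPM with siKMT9α. The part of these shifts in the results was not tested. All 6 samples are labelled as A549 cells, and bulk RNA does not show which cells of a culture a count came from.

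Upon KMT9α knock-down the laminin mRNAs did not move as a block. LAMA3, LAMA5, LAMB1 and LAMC1 rose by 1.62-fold to 3.13-fold, LAMB2 and LAMB3 fell by 1.36-fold and 1.85-fold, LAMA4 did not pass the test, and LAMA1 failed the filter on low counts. By the threshold of the study's methods, a P value below 1e-08 with a log2 fold change beyond 0.26 in either direction, 4 chains of the 7 tested were higher and 1 was lower. Among all 13877 genes tested, 13.5% were higher and 10.7% lower by this threshold. By an adjusted p below 0.05, 4 chains were higher and 2 lower, against 37.1% and 38.5% of all genes. The CPM of the 2 groups did not overlap for 6 of the 7 chains tested, a pattern that 77.0% of all genes shared. The median log2 fold change was 0.69 over the 7 chains and -0.01 over all genes, and the median absolute log2 fold change was 0.89 over the chains and 0.47 over all genes. Most genes were thus called or non-overlapping in this comparison, so sizes are given beside each call.

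**Figure D1:**
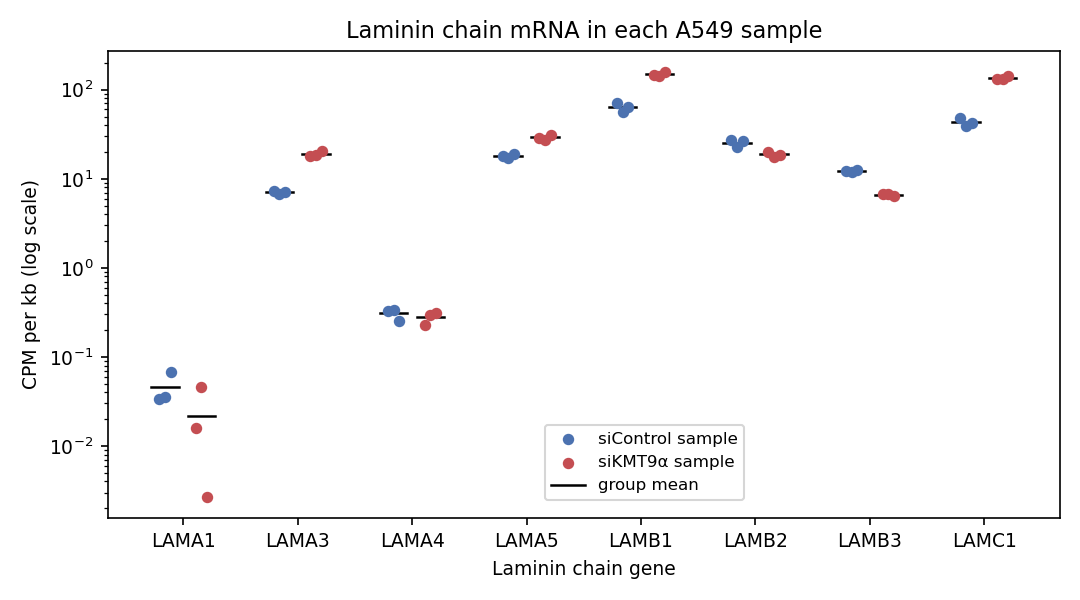
The vertical axis gives CPM per kilobase of transcript on a log scale for each laminin chain, with 1 point per sample for the 3 siControl and the 3 siKMT9α samples and a line at each group's mean. LAMB1 and LAMC1 stand highest in both groups, at 63.5 and 43.2 CPM per kb with siControl, and LAMA4 and LAMA1 lie lowest.

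Among the α chains, LAMA5 was the most abundant in A549 cells. It encodes the α5 chain of laminins α5β1γ1 and α5β2γ1, the most widespread laminins of adult epithelial basement membranes, and lies on the minus strand of chromosome 20 (GRCh37 chr20:60884121-60942368, 80 exons). LAMA5 measured 202.8, 192.8 and 213.5 CPM with siControl and 325.5, 309.7 and 348.9 CPM with siKMT9α. Every siKMT9α sample lay above every siControl sample. The mean rose from 203.0 ± 10.3 to 328.0 ± 19.7 CPM (SD, n = 3), a log2 fold change of 0.69 (SE 0.05, adjusted p = 6.61e-10, edgeR quasi-likelihood test). The annotation places ADRM1 and LAMA5-AS1 partly over LAMA5 on the opposite strand. The strand setting of the counting is not given in the sources used here, so reads of LAMA5 and these neighbours cannot be told apart where they overlap.

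The bases just upstream of 4 chains whose mRNA moved are printed as each chain is described, to show how their start regions differ. They come from RefSeq's promoter windows (GRCh38.p14), which were matched letter for letter to GRCh37, and run 5′ to 3′ on the gene's strand up to the base before the start. Capitals mark the AP-1 motif TGACTCA and the GC box GGGCGG, both searched on both strands, and the TATA box TATAAA, which was found in none of the chains' windows. Windows were found for 7 of the 8 chains, LAMA1 being without one. In windows from 250 bases before to 50 after each start, TGACTCA was present in 4.95% of all 35116 windows, GGGCGG in 44.95% and TATAAA in 11.5%. A match describes the letters and says nothing of binding. The LAMA5 start region (chr20:60942369-60942618, minus strand) held 5 GC boxes and no AP-1 motif:
LAMA5: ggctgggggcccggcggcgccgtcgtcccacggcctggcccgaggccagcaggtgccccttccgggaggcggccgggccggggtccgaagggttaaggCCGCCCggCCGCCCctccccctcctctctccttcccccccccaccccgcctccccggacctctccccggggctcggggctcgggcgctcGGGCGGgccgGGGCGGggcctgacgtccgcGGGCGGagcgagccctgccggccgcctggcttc

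LAMA3 encodes the α3 chain, which with β3 forms the laminin that anchors epithelial cells of skin and airway (GRCh37 chr18:21269562-21535029, plus strand, 75 exons). LAMA3 measured 74.9, 70.5 and 73.7 CPM with siControl and 187.2, 193.3 and 212.5 CPM with siKMT9α. The groups were far apart, the lowest siKMT9α sample lying well above the highest siControl sample. The mean rose from 73.0 ± 2.26 to 197.7 ± 13.2 CPM (SD, n = 3), a log2 fold change of 1.44 (SE 0.05, adjusted p = 1.63e-14, edgeR quasi-likelihood test).

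LAMA3 makes a long and a short mRNA from separate start sites. The long one (75 exons, 10651 bases) encodes α3B and has its first exon at chr18:21269417-21269941. The short one (38 exons, 5618 bases) encodes α3A, which lacks most of the short arm, and starts with an exon of its own of 196 bases at chr18:21452984-21453179. The remaining 37 exons of the short mRNA are identical in the long one. The start region printed here belongs to the short form (chr18:21452734-21452983, plus strand). It held an AP-1 motif at positions -125 and -69 from the start and a GC box at -197:
LAMA3: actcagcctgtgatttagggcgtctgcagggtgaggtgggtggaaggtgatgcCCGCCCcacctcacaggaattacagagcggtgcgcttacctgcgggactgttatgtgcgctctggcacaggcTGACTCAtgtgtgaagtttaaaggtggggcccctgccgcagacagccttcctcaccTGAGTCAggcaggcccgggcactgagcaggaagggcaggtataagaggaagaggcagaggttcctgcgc

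Both LAMA3 forms have rows in the table. The region of the short transcript (NM_000227, 5542 bases) is in both mRNAs apart from the short form's own first exon. It could be set beside the bases that only the long transcript holds, taken as the difference of the counts over 5010 bases. This split was chosen after the data were seen. The region of the short transcript measured 7.97, 7.33 and 7.71 CPM per kb with siControl and 23.8, 25.2 and 27.6 CPM per kb with siKMT9α. The bases of the long transcript alone measured 6.13, 5.97 and 6.17 CPM per kb with siControl and 11.0, 10.7 and 11.9 CPM per kb with siKMT9α. Both regions were higher in every siKMT9α sample, but not by the same fold. The region of the short transcript rose 3.33-fold (log2 fold change 1.73, SE 0.06, adjusted p = 3.64e-15) and that of the long transcript alone 1.84-fold (0.89, SE 0.06, adjusted p = 9.83e-11), both by the edgeR quasi-likelihood test. The ratio between the regions was 1.30, 1.23 and 1.25 with siControl and 2.16, 2.34 and 2.31 with siKMT9α, without overlap (exact permutation test, two-sided, p = 0.1, the smallest that 3 against 3 samples can give). Reads in the short form's own exon make the difference a lower bound for the long form, and how evenly reads covered the transcript was not tested.

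**Figure D2:**
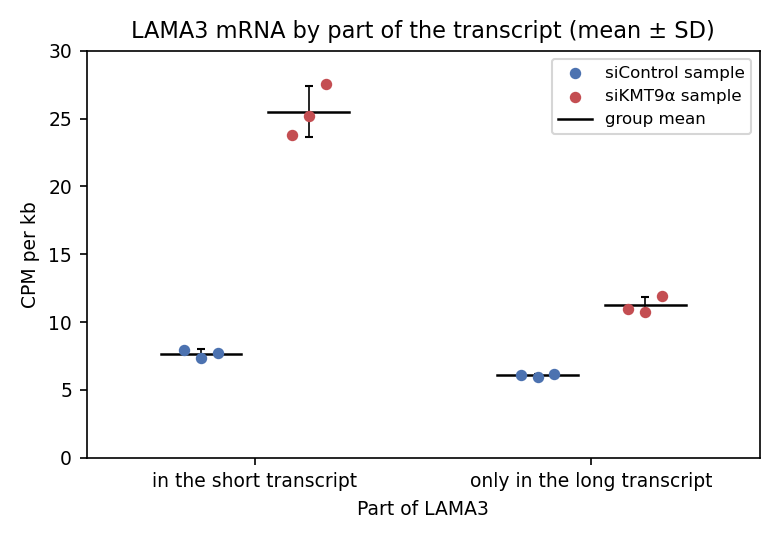
Levels of LAMA3 in CPM per kb (vertical axis, from 0) for the region that is in the short transcript and for the bases only in the long transcript, with 1 point per sample and the mean of each group. The short transcript's region goes from 7.67 ± 0.325 to 25.5 ± 1.89 CPM per kb (SD, n = 3) and the bases of the long transcript alone from 6.09 ± 0.109 to 11.2 ± 0.629 CPM per kb.

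LAMA4 encodes the α4 chain of vessel walls and mesenchymal tissue (GRCh37 chr6:112429134-112575828, minus strand, 39 exons). LAMA4 was scarce in A549 cells, at 2.36, 2.44 and 1.85 CPM with siControl and 1.62, 2.16 and 2.25 CPM with siKMT9α. The groups overlapped, and the log2 fold change of -0.10 (SE 0.20) had an adjusted p = 0.653 in the edgeR quasi-likelihood test. The sign turned without siKMT9α replicate 1, to 0.01. These values rest on 21.5 to 44.5 counts per sample, so a modest change was not detectable at this depth.

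LAMA1 encodes the α1 chain of early embryonic and kidney basement membranes (GRCh37 chr18:6941743-7117813, minus strand, 63 exons). LAMA1 had 6, 5.5 and 12.5 counts with siControl and 2, 6 and 0.5 counts with siKMT9α. The groups overlapped, and with at most 0.65 CPM in any sample the gene failed the filter on low counts and was not tested. With no filter its log2 fold change was -1.30 with an adjusted p = 0.0555 in the edgeR test.

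Among the β chains, LAMB1 was the most abundant and the one that rose. It encodes β1, the partner of γ1 in laminins α1β1γ1, α3β1γ1, α4β1γ1 and α5β1γ1 (GRCh37 chr7:107564246-107643804, minus strand, 34 exons). LAMB1 measured 407.9, 326.3 and 366.3 CPM with siControl and 851.2, 820.0 and 913.5 CPM with siKMT9α. The groups did not overlap. The mean rose from 366.8 ± 40.8 to 861.6 ± 47.6 CPM (SD, n = 3), a log2 fold change of 1.23 (SE 0.07, adjusted p = 2.55e-12, edgeR quasi-likelihood test). In the annotation, DLD overlaps LAMB1 on the opposite strand.

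LAMB2 encodes β2, which replaces β1 in the laminins of the kidney glomerulus and the neuromuscular junction (GRCh37 chr3:49158547-49170599, minus strand, 32 exons). LAMB2 measured 155.8, 131.2 and 152.2 CPM with siControl and 115.1, 100.9 and 107.4 CPM with siKMT9α. All siKMT9α samples lay below all siControl samples, though the distance between the nearest samples was no larger than the range within siControl. The mean fell from 146.4 ± 13.3 to 107.8 ± 7.10 CPM (SD, n = 3), a log2 fold change of -0.44 (SE 0.06, adjusted p = 3.24e-06, edgeR quasi-likelihood test). With an unadjusted p = 1.19e-06 in the edgeR quasi-likelihood test, LAMB2 did not reach the threshold of the methods. It passed that threshold by edgeR's likelihood-ratio test (unadjusted p = 5.14e-11) and by DESeq2 (unadjusted p = 4.38e-09).

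LAMB3 encodes β3, the β chain of the laminin with α3 and β3 (GRCh37 chr1:209788218-209824679, minus strand, 23 exons). LAMB3 measured 51.6, 51.2 and 54.0 CPM with siControl and 28.7, 29.0 and 27.3 CPM with siKMT9α. The siKMT9α samples were nearly identical among themselves and all lay below siControl. The mean fell from 52.2 ± 1.53 to 28.3 ± 0.929 CPM (SD, n = 3), a log2 fold change of -0.89 (SE 0.06, adjusted p = 7.89e-11, edgeR quasi-likelihood test). LAMB3 thus went down while LAMA3, whose product joins it in one laminin, went up. Of the 3 RefSeq start sites of LAMB3, only the window of the most downstream one held an AP-1 motif, at position -67, beside a GC box at -52. Its upstream bases are printed without the 20 that lie in an annotated exon (chr1:209824740-209824969, minus strand). LAMA3 and LAMB3, which moved in opposite directions, were the chains whose windows held the AP-1 motif:
LAMB3: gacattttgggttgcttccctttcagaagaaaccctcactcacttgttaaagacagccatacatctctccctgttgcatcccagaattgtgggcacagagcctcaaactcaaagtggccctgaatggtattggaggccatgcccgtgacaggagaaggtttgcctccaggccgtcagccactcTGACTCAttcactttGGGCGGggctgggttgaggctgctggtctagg

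LAMC1 encodes γ1, the γ chain of most laminins (GRCh37 chr1:182992595-183114727, plus strand, 28 exons). LAMC1 measured 376.3, 310.2 and 328.9 CPM with siControl and 1025, 1043 and 1112 CPM with siKMT9α. It had the highest fold change of the 7 chains tested, though the short-transcript region of LAMA3 had a log2 fold change of 1.73. The LAMC1 groups did not overlap. The mean rose from 338.5 ± 34.0 to 1060 ± 45.6 CPM (SD, n = 3), a 3.13-fold rise with a log2 fold change of 1.65 (SE 0.06, adjusted p = 1.55e-14, edgeR quasi-likelihood test). The annotation places LAMC1-AS1 on the opposite strand. The LAMC1 start region (chr1:182992305-182992554, plus strand) held 3 GC boxes and no AP-1 motif:
LAMC1: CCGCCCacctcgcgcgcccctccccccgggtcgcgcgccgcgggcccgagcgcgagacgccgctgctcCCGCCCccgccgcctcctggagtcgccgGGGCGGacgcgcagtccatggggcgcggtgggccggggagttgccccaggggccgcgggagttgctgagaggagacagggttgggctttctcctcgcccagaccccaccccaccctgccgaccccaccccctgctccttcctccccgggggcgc

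The windows not printed were likewise without the AP-1 motif, with 4 GC boxes for LAMB1, 1 for LAMB2 and none for LAMA4. In the 3′ untranslated regions of the 8 chains, the 7 bases complementary to bases 2 to 8 of the siKMT9α#1 guide strand occurred 0 times, while 13.2% of 18645 genes held them. The regions of LAMB2, LAMB1, LAMA5, LAMA1, LAMB3 and LAMA3 hold 112, 152, 271, 337, 401 and 418 bases. Those of LAMA4 and LAMC1 hold 1506 and 2802, and the median over the 18645 genes is 1092. At that share and these lengths an absence in 8 genes says little, and an effect of the siRNA's sequence was not tested.

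**Figure D3:**
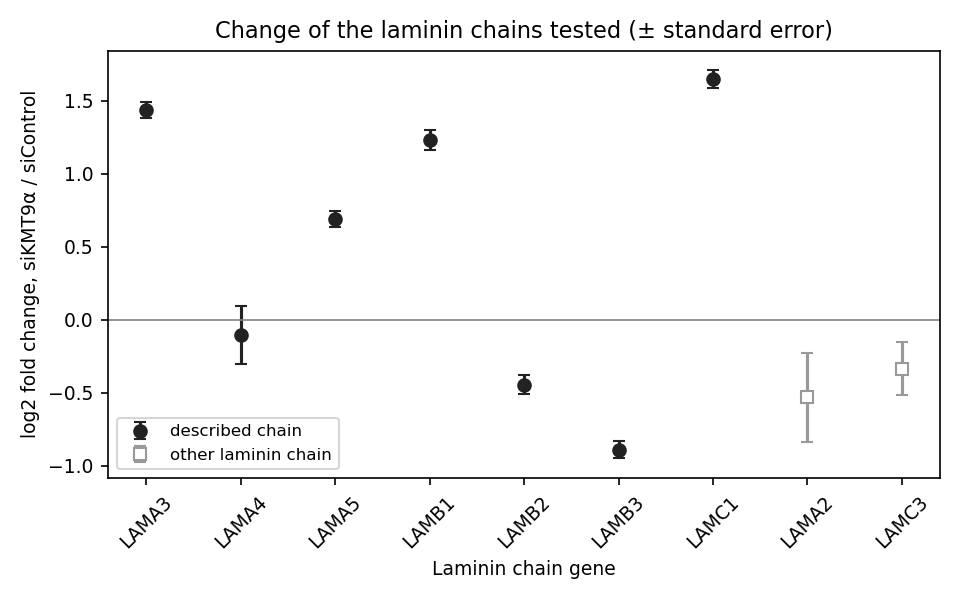
Log2 fold change of siKMT9α against siControl (vertical axis) for laminin chain genes that could be tested, with the standard error as bars. LAMC1, LAMA3, LAMB1 and LAMA5 lie above 0, LAMB2 and LAMB3 below, and the bar of LAMA4 reaches across 0. LAMA2 and LAMC3 are shown as other laminin chains.

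Of other laminin chain genes, LAMA2 and LAMC3, with log2 fold changes of -0.53 and -0.33, had adjusted p of 0.118 and 0.103 in the edgeR test. LAMA2 passed without siControl replicate 2 (log2 fold change -0.77, adjusted p = 0.0187, edgeR) and with offsets for GC content and length (-0.93, adjusted p = 0.00578, and 0.00512 with the replicate block). LAMC3 passed with library size alone (adjusted p = 0.0347, edgeR) and with the offsets (0.0384, but 0.051 with the replicate block). LAMB4 failed the filter on low counts, at 17, 9 and 15 counts with siControl and 0.5, 2.5 and 1.5 counts with siKMT9α. It was tested with no filter and in 4 fits that left out a sample, and was lower in all 5, with adjusted p from 2.64e-06 to 0.000335 (edgeR). In those 4 fits LAMB4 passed the filter only through siControl samples, the group where it was higher, so these p-values are no independent support.

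Because longer transcripts collect more reads, chains were compared with one another only as CPM per kb. With siControl, LAMB1 was highest at 63.5 ± 7.06 CPM per kb, then LAMC1 at 43.2 ± 4.35, LAMB2 at 25.5 ± 2.31 and LAMA5 at 18.0 ± 0.917 CPM per kb (SD, n = 3). LAMB3 at 12.3 ± 0.358, LAMA3 at 7.05 ± 0.219, LAMA4 at 0.307 ± 0.045 and LAMA1 at 0.0457 ± 0.0195 CPM per kb followed. No neighbours in this order had overlapping ranges. With siKMT9α, LAMB1 at 149.1 ± 8.24 and LAMC1 at 135.3 ± 5.82 CPM per kb overlapped in range, followed by LAMA5 at 29.1 ± 1.75 CPM per kb. LAMA3 at 19.1 ± 1.28 and LAMB2 at 18.8 ± 1.24 CPM per kb overlapped as well, and LAMB3 lay below them at 6.64 ± 0.218 CPM per kb. By the long transcript's length, LAMA3, below LAMB2 and LAMB3 in siControl, thus stood level with LAMB2 and above LAMB3. The short-transcript region of LAMA3, at 23.8, 25.2 and 27.6 CPM per kb, lay above LAMB2 in every siKMT9α sample.

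The make-up of each chain class moved with these changes, as shares of the class sum in CPM per kb. The sum over the 4 α chains rose from 25.4 ± 1.06 to 48.5 ± 2.88 CPM per kb (SD, n = 3). Within it, LAMA5 held 70.3%, 70.4% and 71.8% with siControl and 61.2%, 59.1% and 59.8% with siKMT9α. The share of LAMA3 was 28.3%, 28.0% and 27.0% with siControl and 38.3%, 40.1% and 39.6% with siKMT9α. LAMA5 therefore remained the leading α chain in every sample, with a smaller share. The α sum and its shares rest on the long transcript's length for LAMA3. The short-transcript region of LAMA3 measured 23.8, 25.2 and 27.6 CPM per kb with siKMT9α, against 28.9, 27.5 and 31.0 for LAMA5. LAMA4 went from 1.21% ± 0.219 to 0.574% ± 0.086 of the α sum while its own level did not pass the test.

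The β class shifted further towards LAMB1. LAMB1 held 64.3%, 61.8% and 61.8% of the β sum with siControl and 84.6%, 85.3% and 86.3% with siKMT9α. LAMB2 went from 25.2% ± 0.592 to 10.8% ± 0.672 and LAMB3 from 12.2% ± 1.07 to 3.82% ± 0.303 of the β sum (SD, n = 3). The groups did not overlap for any of these shares, and each gave p = 0.1 in the exact two-sided permutation test, the smallest possible here.

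Ratios of chains that can take the same place in a trimer were compared in 5 pairs on the scale of CPM per kb. LAMB1 to LAMB2 was 2.60, 2.47 and 2.39 with siControl and 7.35, 8.08 and 8.45 with siKMT9α. LAMB3 to LAMB1 went from a geometric mean of 0.194 to 0.0446. LAMA5 to LAMA3 was 2.49, 2.51 and 2.66 with siControl and 1.60, 1.47 and 1.51 with siKMT9α. These groups were disjoint, so both β ratios moved towards LAMB1 and the α ratio towards LAMA3. The α ratio took LAMA3 over the long transcript's length, and LAMA3's short-transcript region lay nearer to LAMA5. LAMA5 to LAMA4 went from a geometric mean of 59.0 to 105.4, and LAMA1 to LAMA5 rested on few counts, with log2 ratios of -9.07, -8.91 and -8.12 with siControl and -10.83, -9.22 and -13.46 with siKMT9α. Each of the 5 had p = 0.1 (exact permutation test, two-sided, also 0.1 after Benjamini-Hochberg adjustment).

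To read the chains as possible trimers, the least abundant of the chains was taken in each sample, in CPM per kb, since a trimer takes 1 molecule of each. Protein was not analysed here, and mRNA levels do not give trimer amounts. Laminin α5β1γ1 had LAMA5 as its least abundant chain in both groups and went from 18.0 ± 0.917 to 29.1 ± 1.75 CPM per kb (SD, n = 3). Laminin α3β1γ1 had LAMA3 in both and went from 7.05 ± 0.219 to 19.1 ± 1.28 CPM per kb, 2.71-fold. For both, the siKMT9α samples lay above all siControl samples. The level of laminin α3β1γ1 rests on the long transcript's length for LAMA3. By its short-transcript region, LAMA3 went from 7.67 to 25.5 CPM per kb, 3.33-fold.

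The trimers of α5 or α3 with β2, and the laminin with α3 and β3, changed their least abundant chain in some or all samples. Laminin α5β2γ1 went from LAMA5 at 18.0 CPM per kb to LAMB2 at 18.8 ± 1.24 CPM per kb, a log2 ratio of 0.06 with overlapping groups (exact permutation test, p = 0.5). Laminin α3β2γ1 went from LAMA3 at 7.05 CPM per kb to LAMA3 or LAMB2 at 18.1 ± 0.569 CPM per kb, 2.57-fold. This rests on the long transcript's length for LAMA3, whose short-transcript region lay above LAMB2 in every siKMT9α sample. For the laminin with α3 and β3, of which these chains alone were taken, the less abundant chain changed from LAMA3 to LAMB3, at 7.23, 6.81 and 7.11 CPM per kb with siControl and 6.74, 6.80 and 6.39 with siKMT9α. These values nearly touched, a log2 ratio of -0.09, although LAMA3 itself had risen. The siControl values again rest on the long transcript's length. LAMA3's short-transcript region measured 7.97, 7.33 and 7.71 CPM per kb with siControl, further above the siKMT9α values of LAMB3.

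Trimers with α4 or α1 were set by those scarce chains in both groups. Laminins α4β1γ1 and α4β2γ1 stood at 0.307 ± 0.045 and 0.279 ± 0.047 CPM per kb through LAMA4, and laminins α1β1γ1 and α1β2γ1 at 0.0457 ± 0.0195 and 0.0215 ± 0.0222 CPM per kb through LAMA1, with overlapping groups. Of the 9 trimers, laminins α5β1γ1, α3β1γ1, α3β2γ1 and that with α3 and β3 had an exact two-sided permutation p = 0.1, adjusted 0.225 over the 9, laminins α5β2γ1, α4β1γ1 and α4β2γ1 had p = 0.5, and laminins α1β1γ1 and α1β2γ1 had p = 0.3. None could pass 0.05, since 0.1 is the smallest p in this design.

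**Figure D4:**
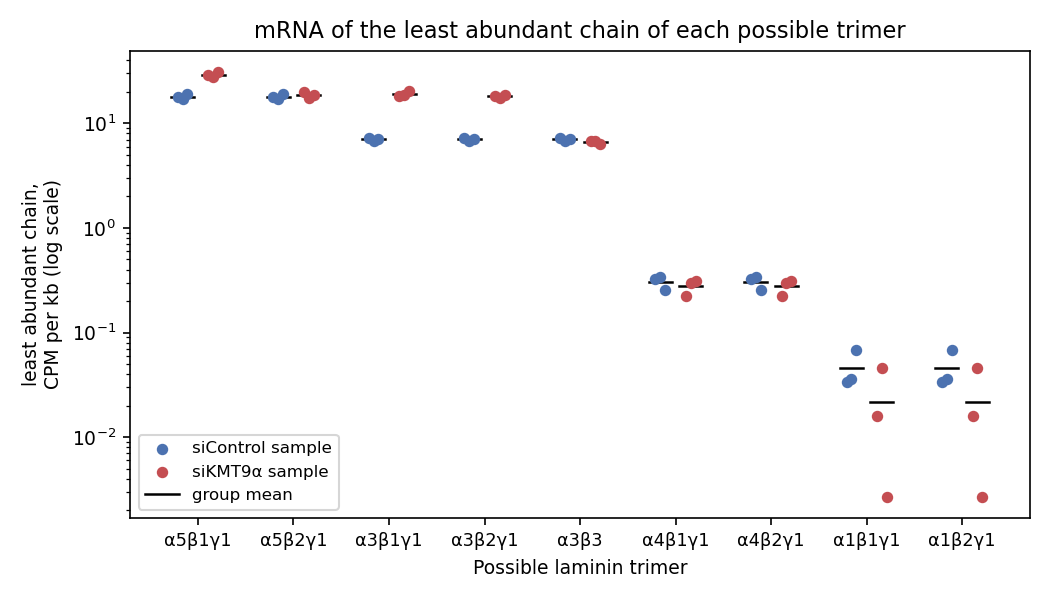
The vertical axis gives the least abundant chain's mRNA in CPM per kb, on a log scale, for each possible laminin trimer, with 1 point per sample in the 3 siControl and the 3 siKMT9α samples. Laminins α5β1γ1, α3β1γ1 and α3β2γ1 are higher with siKMT9α, laminin α5β2γ1 and that with α3 and β3 differ between the groups by log2 ratios of 0.06 and -0.09, and trimers with α4 or α1 lie far below.

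The genes that laminins work with were grouped in 5 lists, to be read against the same shares of all genes given above. Of 14 laminin receptors, all tested, 5 were higher and 1 lower by the methods' threshold, and 8 rose and 2 fell by adjusted p, with a median log2 fold change of 0.20. ITGA3, the α subunit of integrin α3β1, which binds laminins with α3 or α5, rose from 429.5 ± 21.3 to 1196 ± 19.0 CPM (log2 fold change 1.48, adjusted p = 3.16e-15, edgeR quasi-likelihood test). ITGA6, the α subunit of the laminin receptors α6β1 and α6β4, fell from 149.6 ± 15.1 to 66.4 ± 7.12 CPM (log2 fold change -1.17, adjusted p = 3.05e-11, edgeR). ITGA2, of the collagen and laminin receptor α2β1, rose from 89.1 ± 6.82 to 352.1 ± 15.0 CPM, and SDC4, a heparan sulfate proteoglycan of the cell surface, from 52.1 to 143.4 CPM. ITGB4, the hemidesmosomal partner of α6, measured 25.1 and 25.0 CPM (adjusted p = 0.964, edgeR). ITGB1, the common β1 subunit, measured 2683 ± 229.3 and 3036 ± 159.7 CPM with overlapping groups (log2 fold change 0.18, adjusted p = 0.0127, edgeR), and without siControl replicate 2 or 3 or with library size alone its adjusted p was 0.0707, 0.066 and 0.276.

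Of 24 basement membrane partners, 19 could be tested, and 12 were higher and 0 lower by the methods' threshold in the edgeR test. By adjusted p 18 rose and 1 fell, SPARC, a collagen-binding matrix protein, which was also the 1 gene lower at an unadjusted p below 0.05. Their median log2 fold change was 1.16. COL4A1, a chain of type IV collagen, the second network of the basement membrane, rose from 32.2 ± 3.52 to 149.5 ± 3.94 CPM (log2 fold change 2.21, adjusted p = 3.24e-16, edgeR quasi-likelihood test). COL4A5 and COL4A6, which are neighbouring type IV collagen genes, went from 30.3 to 114.2 and from 26.9 to 98.1 CPM. Named after their values were seen, HSPG2, the proteoglycan perlecan, went from 33.9 ± 3.12 to 78.1 ± 6.74 CPM, and NID2, one of the nidogens that tie laminin γ1 to collagen IV, from 22.7 ± 0.917 to 39.3 ± 4.12 CPM.

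The list of 11 laminin processing proteases also holds PLAU and PLAT, which activate plasminogen. Of the 11, 10 were tested, and 3 were higher, PLAU among them, and 0 lower by the methods' threshold in the edgeR test. By adjusted p 4 rose and 4 fell, and 4 were lower at an unadjusted p below 0.05 as well. Named after their values were seen, TLL2 and MMP9, among those that fell, reached at most 0.314 and 0.439 CPM with siKMT9α. Both passed the filter on low counts only through the siControl samples, where they were higher, so their p-values are no independent support. Their median log2 fold change was 0.28. BMP1, which trims α3, rose from 29.5 to 63.2 CPM (log2 fold change 1.09), and its relative TLL1 measured 0.159, 0.370 and 0.390 CPM with siControl and 2.53, 2.78 and 3.77 CPM with siKMT9α. TLL1, 1 of the 3 counted as higher, passed the filter on low counts only through the siKMT9α samples and was left out where every sample had to reach 10 counts. It missed the methods' threshold without siControl replicate 2 or without siKMT9α replicate 2. PLAU, the urokinase that turns plasminogen into plasmin, rose from 78.5 to 650.7 CPM, and its span overlaps that of C10orf55 in the table.

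Of 12 secretory folding and export genes, 1 was higher and 2 were lower by the methods' threshold, and by adjusted p 5 rose and 4 fell, with a median log2 fold change of 0.08. PDIA4, a disulfide isomerase, rose from 216.1 to 331.4 CPM and missed the methods' threshold without siControl replicate 2 or without siKMT9α replicate 2, which left 0 genes of the list higher, while CANX, the chaperone calnexin, fell from 1610 to 557.2 CPM and SEC23A, of the vesicle coat that leaves the endoplasmic reticulum, from 334.6 to 128.6 CPM. Of 16 genes for the sugar by which dystroglycan binds laminin, 15 were in the table and tested, with 1 higher and 1 lower by the methods' threshold. By adjusted p 6 rose and 5 fell, with a median log2 fold change of -0.09. POMT2, which adds its first mannose, rose from 42.7 to 92.6 CPM, and POMGNT2, which extends it, fell from 13.3 to 3.58 CPM.

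**Figure D5:**
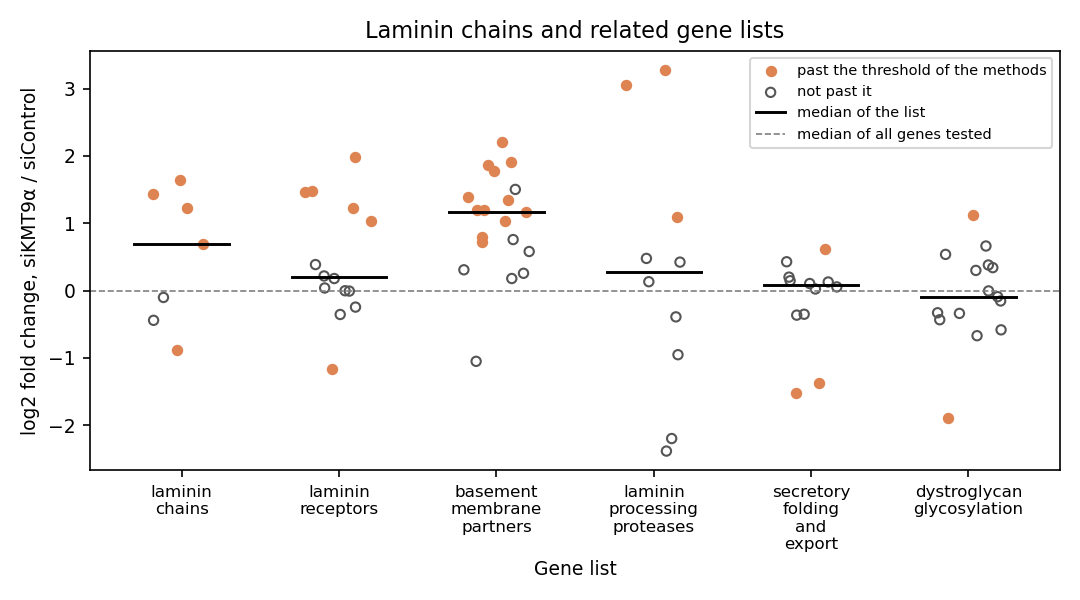
Log2 fold change of siKMT9α against siControl (vertical axis) for every gene tested of the laminin chains and of the 5 lists of genes they work with, 1 point per gene, with each list's median and a dashed line at the median of all genes tested. Basement membrane partners have the highest list median, 1.16, while the medians for folding and export and for dystroglycan glycosylation, 0.08 and -0.09, lie near that of all genes.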

How the data were processed

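Total RNA of the 6 samples was sequenced by the authors, aligned to hg19 with STAR and counted per RefSeq transcript with HOMER. The authors deposited estimated counts for 38767 transcripts, of which 36.4% of values are not whole, in steps of 0.5. 1182 entries without symbol or counts were not used here, nor were the deposited columns of the authors' own comparison (log2 fold change, P value, adjusted P value). Counting options are not given in the sources used here.

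Counts were rounded to whole numbers. For each of 23180 symbols the transcript with the largest summed count was kept. After edgeR's filter on low counts (filterByExpr, edgeR 4.0.16, R 4.3.3), 13877 genes were tested with TMM factors (0.964 to 1.042) and the quasi-likelihood test with Benjamini-Hochberg adjustment. CPM use the TMM-scaled library sizes and unrounded counts, and CPM per kb divide them by the deposited transcript length. The biological coefficient of variation was 4.47%. Within-sample ratios and trimers were compared by the exact two-sided permutation test (SciPy 1.17.1). The script was tested on simulated data.

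Some genes are not reported here. Chains and gene lists were chosen with earlier results of these data known. Named were the chains, N6AMT1, ITGA3, ITGA6, ITGB1, ITGB4 and, per list, up to 3 genes of largest change in each direction past the methods' threshold. Gene models came from GENCODE (lifted to GRCh37), and promoter windows from RefSeq (GRCh38.p14). The alternatives covered normalisation (RLE factors, library size alone), low-count filters, DESeq2 1.42.0, edgeR's likelihood-ratio test, the choice of transcript, a replicate block, GC content and length offsets, and each sample left out in turn.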

Additional observations from a re-analysis of the deposited data

How the results depend on the processing

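Of 420 recomputed values, 394 were classed as the same as in the main fit. For fold changes this meant the same direction and the same side of an adjusted p of 0.05. For counts of genes it meant an equal or similar number. For ratios and trimers it meant the same direction only, since their permutation p cannot go below 0.1. For every chain the longest transcript was the one already used, so that setting could not move the ratios and trimers. With every transcript fitted, the short LAMA3 transcript had a log2 fold change of 1.74, against 1.44 for the long one. Leaving out 1 sample at a time gave log2 fold changes of 1.38 to 1.48 for LAMA3, 0.65 to 0.74 for LAMA5, 1.16 to 1.33 for LAMB1, -0.51 to -0.38 for LAMB2, -0.90 to -0.85 for LAMB3 and 1.60 to 1.75 for LAMC1. LAMA4 ranged from -0.21 to 0.0107, turning sign without siKMT9α replicate 1. The log2 ratio for laminin α5β2γ1 was -0.0467 with library size alone, which lowered the median log2 fold change of all genes by 0.105. Causes of the changes below were not tested.

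Chains lower by the methods' threshold numbered 2 rather than 1 with no filter, DESeq2, the likelihood-ratio test and GC content and length offsets, alone or with the replicate block. The added chain was LAMB2. Receptors lower numbered 2 under the offsets with the block, and proteases lower numbered 1 with no filter. Basement membrane partners lower numbered 1 with library size alone, no filter and both offset fits. Folding and export genes higher numbered 0 with library size alone and with the replicate block, 2 with no filter and both offset fits, and 0 to 2 with 1 sample left out. Dystroglycan glycosylation genes higher numbered 4 with no filter and both offset fits and 1 to 2 with 1 sample left out, and those lower numbered 2 with no filter. The offsets, chosen after seeing the data and covering 91.6% of genes, gave log2 fold changes of 1.05 for LAMA3, -0.40 for LAMA4, 0.43 for LAMA5, 0.99 for LAMB1, -0.53 for LAMB2, -0.89 for LAMB3 and 1.32 for LAMC1.

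Same-numbered samples did not deviate together (correlations -0.121, 0.04 and -0.107 for replicates 1, 2 and 3). No pairing by number was thus seen, though groups of 3 samples cannot exclude one. The replicate block gave 1.44 for LAMA3, -0.10 for LAMA4, 0.69 for LAMA5, 1.24 for LAMB1, -0.44 for LAMB2, -0.89 for LAMB3 and 1.65 for LAMC1. Over all genes it gave 1369 higher and 975 lower by the methods' threshold, against 1878 and 1479 without it, 3184 and 2886 with no filter, 3086 and 2876 by the likelihood-ratio test and 3830 and 2937 with every transcript fitted. Library size alone gave 1516 higher and 1862 lower. LAMA1 and LAMA4, at 0.5 to 44.5 counts, are limited by depth. With 3 samples per group the permutation test cannot go below p = 0.1.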
